A study of Mus musculus with 23 samples.

Results

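The genes described are 10 imprinted genes with known roles in growth, *Igf2*, *Dlk1*, *Igf2r*, *Grb10*, *Cdkn1c*, *Peg3*, *Plagl1*, *H19*, *Meg3* and *Rian*, matched by symbol among the 27179 genes of a mouse liver RNA-seq count table. All 10 were found. The rule names them and uses no measured value, but they were chosen with earlier results of these data known. RNA came from liver without visible tumors of 15 female mice in 3 groups, all of which carried *Alb-Cre*, a Cre recombinase driven by the albumin promoter that acts in hepatocytes, and *Trp53* flx/flx. The 6 Ctrl mice had wild-type *Braf* and *Icmt* flx/+. The 6 ABpIF/+ mice added the Cre-activated *Braf* CA allele, which encodes the V600E oncoprotein, on *Icmt* flx/+. The 3 ABpIF/F mice carried that *Braf* allele and *Icmt* flx/flx, so that Cre can delete both copies of the gene for the prenylcysteine carboxyl methyltransferase ICMT. The genotype labels of both *Braf* groups read BRAF +/+, where the design of the series gives BrafCA/+. The 3 ABpIF/F mice differed in age by the study's account, and no source used here ties an age to a mouse, so age and the differences among these mice cannot be told apart. Ages of the sequenced Ctrl and ABpIF/+ mice are not known here either. A difference in age between groups therefore cannot be told apart from genotype.

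In an imprinted gene only the copy from one parent is active, and a nearby control region is methylated on one parental copy. Imprinted genes sit in clusters, and many of them set fetal growth: *Igf2* and *Dlk1*, both active on the paternal copy, promote it, while *Igf2r*, *Grb10* and *Cdkn1c*, active on the maternal copy, restrain it. *H19*, *Meg3* and *Rian* are maternally expressed noncoding RNAs that share clusters with *Igf2* and *Dlk1*. In mouse liver most of these genes are highly expressed before birth and are shut down in the first weeks of life, and renewed expression of *H19*, *Igf2* or *Dlk1* is a known feature of liver tumors and of liver regeneration.

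Counts ran from 24742910 to 32262649 reads on genes per mouse. Levels are in CPM, counts relative to library size with edgeR's TMM factors, SE is the standard error of a log2 fold change, p-values of calls are edgeR's after Benjamini-Hochberg adjustment unless another tool is named, and calls needed both 2-fold or more and an adjusted p under 0.01. The targeted gene *Icmt* was at 27.8 to 34.7 CPM in Ctrl, 27.8 to 37.4 in ABpIF/+ and 15.2 to 16.6 in ABpIF/F mice, so its RNA was lower but present there. All 10 hepatocyte markers were detected in every group. The Ctrl mouse malpa387 had a summed level of 14 circadian clock genes of 320.3 CPM, against 749.5 to 923.5 in the other 5 Ctrl mice. The sum was 751.3 to 1062 CPM in ABpIF/+ and 260.9 to 522.1 in ABpIF/F mice, without overlap. Clock level and genotype thus cannot be told apart between the *Braf* groups. Of the Ctrl mice only BG3 carried the strain label of all *Braf* mice, so strain label and genotype were nearly confounded. Nothing in the labels ties mice to litters, and all replicates are single mice.

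Most of the genes lie in 2 clusters on GRCm38 (GENCODE M21). On chromosome 7, *H19* (chr7:142575529-142578143, minus strand) is 72.6 kb from *Igf2* (chr7:142650766-142666816, minus strand), and *Cdkn1c* (chr7:143458339-143461050, minus strand) lies 791.5 kb beyond *Igf2*. On chromosome 12, *Dlk1* (chr12:109452823-109463336), *Meg3* (chr12:109541001-109571726) and *Rian* (chr12:109603940-109661716) follow each other on the plus strand with gaps of 77.7 and 32.2 kb. *Peg3* (chr7:6703892-6730431, minus strand), *Plagl1* (chr10:13060504-13131694, plus strand), *Grb10* (chr11:11930508-12038683, minus strand) and *Igf2r* (chr17:12682406-12769664, minus strand) each belong to other imprinted regions. *Igf2* is overlapped on the opposite strand by *Igf2os*, *Igf2r* by *Airn*, *Meg3* by *Gm26906*, *Plagl1* by *Gm27741* and *Cdkn1c* by *Gm44732*, and the strand setting of the counting is not stated.

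The noncoding RNAs and *Igf2* also carry microRNAs, which polyadenylated RNA libraries do not measure. The mature sequences from RefSeq (GRCm38.p6) are shown because their host genes are among those with the greatest changes, with the seed (bases 2 to 8) in capitals. The H19 hairpin lies in an exon of *H19*, that of Igf2 in an intron, and those of Meg3 shown here in an exon. The 6 sequences hold 6 different seeds, so none of them share a seed family.
mmu-miR-675-5p, in H19: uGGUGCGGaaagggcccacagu
mmu-miR-675-3p, in H19: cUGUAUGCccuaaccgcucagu
mmu-miR-483-5p, in Igf2: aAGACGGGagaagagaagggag
mmu-miR-483-3p, in Igf2: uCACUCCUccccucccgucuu
mmu-miR-770-5p, in Meg3: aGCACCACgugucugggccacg
mmu-miR-770-3p, in Meg3: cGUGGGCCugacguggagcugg

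Promoter windows, from 250 bases before to 50 bases after the start, were in the RefSeq table for 8 of the 10 genes. They were searched on both strands for the TATA box (TATAAA), the GC box (GGGCGG), the AP-1 site (TGANTCA), the cyclic AMP response element CRE (TGACGTCA), the ZAC1 site (GGGGCCCC) bound by the product of *Plagl1*, and the YY1 site (CCATNTT). The CRE letters were found in a *Meg3* and in the *Peg3* window, and in 1.79% of all 32851 windows. The *Peg3* window also held the ZAC1 letters, found in 1.08% of windows, and the *Meg3* window held 2 overlapping TATA box matches, a motif in 13.6% of windows. The *Dlk1* window held none of the 6 motifs. Shown are the windows of *Meg3* and *Peg3*, the genes that share the CRE letters, one highest in ABpIF/F and the other in ABpIF/+, with the matches in capitals, and that of *Dlk1*, the neighbour of *Meg3*. A match describes the letters only, and binding was not measured.
Meg3, chr12:109540746-109541045, plus strand: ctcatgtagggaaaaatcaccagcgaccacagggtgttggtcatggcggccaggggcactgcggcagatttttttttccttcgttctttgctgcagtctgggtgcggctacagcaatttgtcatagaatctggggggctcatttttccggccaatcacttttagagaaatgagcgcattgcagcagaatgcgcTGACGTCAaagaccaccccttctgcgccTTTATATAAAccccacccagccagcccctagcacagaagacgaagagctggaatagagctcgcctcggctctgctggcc
Peg3, chr7:6730370-6730669, minus strand: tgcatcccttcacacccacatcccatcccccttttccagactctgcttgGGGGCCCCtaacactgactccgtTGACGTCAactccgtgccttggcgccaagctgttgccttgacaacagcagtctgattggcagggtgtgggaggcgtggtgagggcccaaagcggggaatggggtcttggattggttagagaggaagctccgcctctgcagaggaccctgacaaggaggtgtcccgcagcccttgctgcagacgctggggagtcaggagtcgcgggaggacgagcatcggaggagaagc
Dlk1, chr12:109452573-109452872, plus strand: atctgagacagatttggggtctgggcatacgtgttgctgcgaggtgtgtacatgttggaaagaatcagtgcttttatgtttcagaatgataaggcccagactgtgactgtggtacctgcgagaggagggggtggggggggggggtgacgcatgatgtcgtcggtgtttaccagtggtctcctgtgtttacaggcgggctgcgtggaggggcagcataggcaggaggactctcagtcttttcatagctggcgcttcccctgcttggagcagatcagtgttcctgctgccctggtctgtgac

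In ABpIF/+ vs Ctrl 5 of the 10 genes were upregulated (*H19*, *Peg3*, *Dlk1*, *Cdkn1c*, *Grb10*), 1 was downregulated (*Rian*) and 4 were not called. Of all genes tested, 10.0% were called in this comparison, 4.69% up and 5.35% down. In ABpIF/F vs Ctrl 7 were upregulated (*H19*, *Dlk1*, *Igf2*, *Meg3*, *Rian*, *Grb10*, *Cdkn1c*), against 4.55% of all genes up and 6.93% called in all. No member was called down there, none fell at an unadjusted p under 0.05, and DESeq2 called 0 down as well. Directly compared, 4 genes were lower in ABpIF/+ than in ABpIF/F (*Rian*, *Meg3*, *Dlk1*, *Plagl1*), a direction in which 5.49% of all genes were called. Without BG38 the number of all genes called fell from 1969 to 1155 in ABpIF/+ vs ABpIF/F and from 1883 to 1212 in ABpIF/F vs Ctrl. Of the 10 genes 4 and 6 were then called, but not the same genes. In ABpIF/+ vs ABpIF/F *Plagl1* lost its call (adjusted p = 0.0341) and *Peg3* was called higher in ABpIF/+ (2.97, adjusted p = 0.00358). In ABpIF/F vs Ctrl *Grb10* lost its call (adjusted p = 0.121). In the fit of all 15 mice none was called higher in ABpIF/+ than in ABpIF/F, where edgeR had 2 at an unadjusted p under 0.05 and DESeq2 called 0. The median log2 fold change over the 10 genes was 1.54, 2.34 and -1.43 in the 3 comparisons, and over 12316 genes that averaged 1 CPM or more it was 0.02, 0 and 0.04. Both comparisons with Ctrl use the same 6 Ctrl mice. The genes were chosen with earlier results of these data known, so their counts beside those of all genes describe and do not test.

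**Figure D1:**
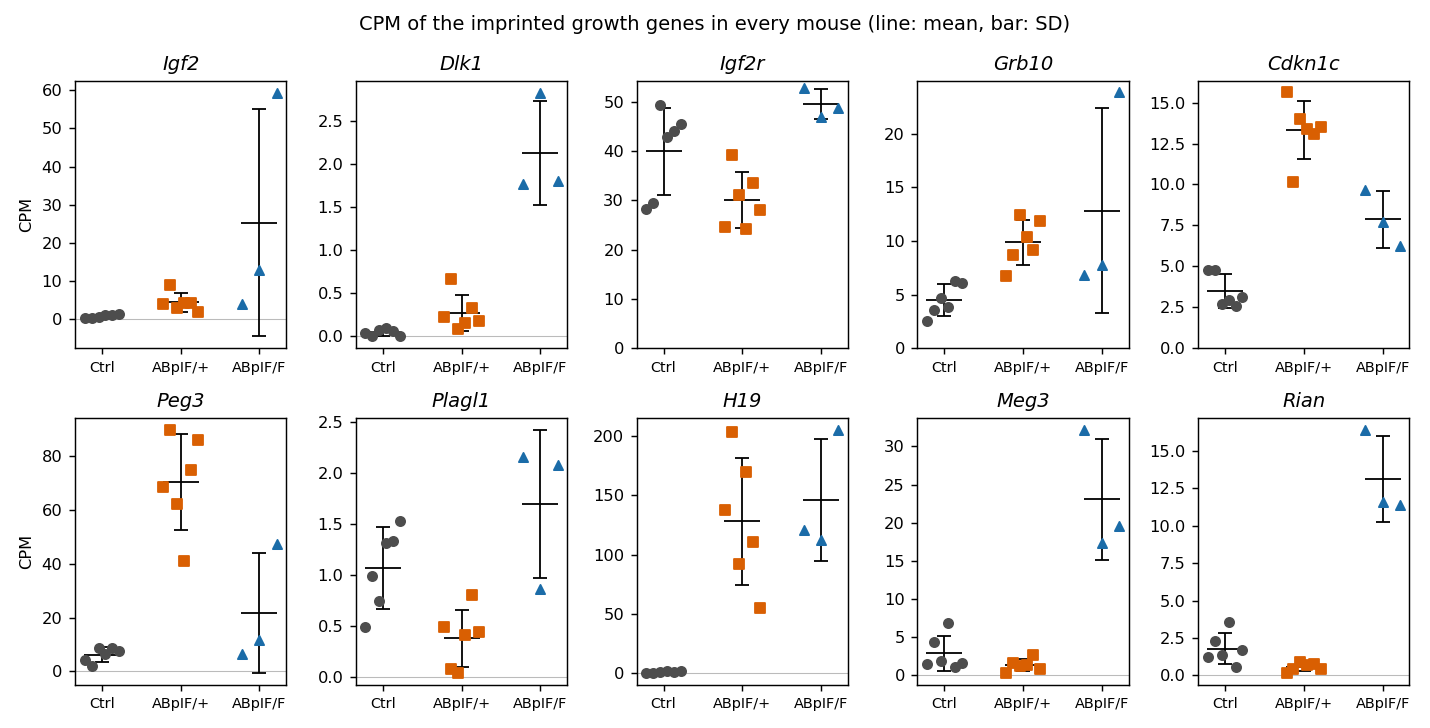
CPM (vertical axis, linear) of each of the 10 genes in the 6 Ctrl (circles), 6 ABpIF/+ (squares) and 3 ABpIF/F (triangles) mice, with the mean (line) and SD (bar) of each group. All *H19* values of the *Braf* groups lie at 55.3 CPM or more, above the highest Ctrl mouse at 2.24, while *Meg3* and *Rian* are high in the 3 ABpIF/F mice alone.

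The fetal growth factor *Igf2*, a ligand of the IGF1 and insulin receptors, was between 0.447 and 1.30 CPM in Ctrl livers (median 0.882) and between 1.94 and 9.09 CPM in ABpIF/+ livers (median 4.19). In the ABpIF/F mice it was 3.95 CPM in BG183, 12.8 in BG90 and 59.2 in BG38. Every *Braf* mouse lay above every Ctrl mouse, and the ABpIF/F mice spread over a range that reached into the ABpIF/+ values. The means were 0.843 ± 0.360 (SD, n = 6) in Ctrl, 4.46 ± 2.46 (SD, n = 6) in ABpIF/+ and 25.3 ± 29.7 CPM (SD, n = 3) in ABpIF/F. The log2 fold change in ABpIF/F vs Ctrl was 4.89 (SE 0.70, adjusted p = 0.000259), and without BG38 it was 3.29 and still called. In ABpIF/+ vs Ctrl it was 2.38 (SE 0.63, adjusted p = 0.0123), just outside the threshold. It passed with DESeq2 (adjusted p = 0.000122), with genes of low counts removed (0.00361) and without robust estimation (0.00117). It also passed without BG183 or BG38 (0.00195 and 0.000243), mice that are outside this comparison and enter only its estimate of the spread. It did not pass with a score of the clock genes as a covariate (2.08, adjusted p = 0.0815). With the same strain label only, which left a lone Ctrl mouse and so no Ctrl spread, it was 3.29. Between ABpIF/+ and ABpIF/F the log2 difference was -2.51 (adjusted p = 0.0141). It passed with DESeq2 (adjusted p = 0.00123), with genes of low counts removed (0.00485), without robust estimation (0.00145), without BG40 (0.00851) and without BG183 (-3.01, 0.00126). Without BG38 it was -0.91 (0.299), and with the clock score it was -3.26 and did not pass (0.158). With the same strain label only it was -2.44 and not called.

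The second ligand, *Dlk1*, encodes a membrane protein related to Notch ligands that marks fetal hepatoblasts. It was nearly absent from Ctrl livers, with 0 to 3 reads per mouse and 8 reads in all 6. ABpIF/+ mice had 2 to 17 reads each, 44 together, and the ABpIF/F mice BG183, BG90 and BG38 had 54, 79 and 65 reads. In CPM, ABpIF/F mice were at 1.76, 2.82 and 1.80, above all ABpIF/+ mice (0.0806 to 0.658, median 0.199), while the ABpIF/+ and Ctrl ranges overlapped. On summed counts *Dlk1* was 44.3 times as high in ABpIF/F as in Ctrl (exact 95% interval 22.1 to 104.1), and 5.66 times as high in ABpIF/+ as in Ctrl (2.64 to 13.9), intervals that cover counting error only. It was called up in ABpIF/F vs Ctrl (adjusted p = 1.41e-06) and in ABpIF/+ vs Ctrl (adjusted p = 0.00473), the latter a call that ended on leaving out malpa387, BG3, malpa462, BG40 or BG175 in turn (log2 fold changes of 1.95 to 2.37), with only those groups in the fit (adjusted p = 0.0168) and with the clock score as a covariate (0.0204). Compared directly, *Dlk1* was lower in ABpIF/+ than in ABpIF/F by a log2 fold change of -2.97 (SE 0.52, adjusted p = 0.000299). With the clock score, which does not overlap between these groups, it was -3.09 (SE 0.97, adjusted p = 0.0593) and the call was lost.

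*Igf2r*, the receptor that takes up IGF2 and sends it to lysosomes for breakdown, differed by less than 2-fold in each comparison of the 3-group fit. Its CPM were 28.3 to 49.5 in Ctrl (median 43.5), 24.1 to 39.1 in ABpIF/+ (median 29.6) and 52.8, 46.8 and 48.8 in the ABpIF/F mice BG183, BG90 and BG38. The 3 ABpIF/F mice lay above all 6 ABpIF/+ mice, and the Ctrl values overlapped with both. The log2 difference between ABpIF/+ and ABpIF/F was -0.72 (95% interval -1.08 to -0.36, adjusted p = 0.00468), past the p threshold and short of 2-fold. With the clock score as a covariate it was -1.19 (adjusted p = 0.00485) and called. Against Ctrl it was -0.41 (-0.71 to -0.11, adjusted p = 0.0392) in ABpIF/+ and 0.31 (-0.05 to 0.67, adjusted p = 0.288) in ABpIF/F mice. Its antisense neighbour *Airn* is a noncoding RNA that can silence the paternal *Igf2r* copy and shares genomic sequence with *Igf2r*. *Airn* averaged 0.390 CPM in Ctrl, 0.530 in ABpIF/+ and 1.07 in ABpIF/F mice, and it was not called.

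*Grb10* encodes an adaptor that dampens signalling from the insulin and IGF1 receptors. Its level was 2.49 to 6.28 CPM in Ctrl (median 4.27) and 6.71 to 12.4 in ABpIF/+ livers (median 9.73), with no overlap. In ABpIF/F mice it was 6.82 CPM in BG183, 7.79 in BG90 and 23.9 in BG38, so that the first pair lay among the ABpIF/+ values and BG38 above them. The log2 fold change was 1.13 in ABpIF/+ vs Ctrl (SE 0.30, adjusted p = 0.0086) and 1.52 in ABpIF/F vs Ctrl (SE 0.35, adjusted p = 0.00485). Both calls were close to the threshold: leaving out any of 9 mice ended the first (malpa387, BG3, malpa454, malpa458 and each ABpIF/+ mouse but BG55, at values of 1.01 to 1.17), leaving out BG3, malpa454, malpa458 or BG38 ended the second, and without BG38 the ABpIF/F value was 0.70 (adjusted p = 0.121). The clock score as a covariate also ended both (0.92, adjusted p = 0.0746, and 1.83, 0.0112), and a fit of only those groups ended the second (1.48, 0.0214). The *Braf* groups did not differ detectably, with a log2 difference of -0.38 (95% interval -1.12 to 0.35).

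The cell cycle inhibitor *Cdkn1c* encodes p57, which blocks cyclin-dependent kinases. It was 2.55 to 4.80 CPM in Ctrl (median 3.02), 10.2 to 15.7 in ABpIF/+ (median 13.5) and 9.69, 7.68 and 6.23 in the ABpIF/F mice BG183, BG90 and BG38. The 3 groups did not overlap, with ABpIF/+ highest and ABpIF/F in between. Values of 15.9%, 17.1% and 18.7% of all genes did not overlap either in ABpIF/+ vs Ctrl, ABpIF/F vs Ctrl and ABpIF/+ vs ABpIF/F, and 5, 7 and 6 of the 10 genes here did not. The log2 fold change of *Cdkn1c* was 1.94 in ABpIF/+ vs Ctrl (SE 0.18, adjusted p = 2.71e-08) and 1.18 in ABpIF/F vs Ctrl (SE 0.21, adjusted p = 0.000265), and neither call depended on any single mouse. The difference of 0.76 between ABpIF/+ and ABpIF/F (95% interval 0.31 to 1.21, adjusted p = 0.0155) did not pass.

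*Peg3* encodes a paternally expressed zinc finger protein with a part in growth and cell death, and its highest group was ABpIF/+. It was 1.85 to 8.77 CPM in Ctrl (median 6.89) and 40.9 to 89.8 CPM in ABpIF/+ mice (median 71.7), so that each ABpIF/+ mouse was above each Ctrl mouse. The ABpIF/F mice differed among themselves: BG183 at 6.56 CPM lay within the Ctrl range, BG90 at 11.5 just above it and BG38 at 47.5 within the ABpIF/+ range. The log2 fold change in ABpIF/+ vs Ctrl was 3.50 (SE 0.50, adjusted p = 0.000153), from a mean of 6.22 ± 2.75 to 70.4 ± 17.8 CPM (SD, n = 6 each). In ABpIF/F vs Ctrl it was 1.81 (adjusted p = 0.0374). That value passed with DESeq2 (0.00649), without robust estimation (0.00514) and without BG183 (2.24, 0.00848), and it was 0.53 (0.696) without BG38. In ABpIF/+ vs ABpIF/F it was 1.68 (adjusted p = 0.0736), and without BG38 it was 2.97 and called (adjusted p = 0.00358).

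*Plagl1* encodes ZAC1, a zinc finger transcription factor that regulates other imprinted genes and arrests the cell cycle. It was low throughout, at 0.484 to 1.53 CPM in Ctrl (median 1.15), 0.0403 to 0.799 in ABpIF/+ (median 0.424) and 2.15, 0.857 and 2.08 in the ABpIF/F mice BG183, BG90 and BG38. These are 13 to 43, 1 to 25 and 24 to 75 reads per mouse. All ABpIF/F mice lay above all ABpIF/+ mice, and *Plagl1* was lower in ABpIF/+ by a log2 fold change of -2.14 (SE 0.53, adjusted p = 0.00578). That call ended without BG88, BG30, BG183 or BG38, at values from -2.19 to -1.94, and with only those groups in the fit (adjusted p = 0.0179). With the clock score as a covariate the value was -3.11 (SE 0.78, adjusted p = 0.0189) and not called. The value of -1.47 in ABpIF/+ vs Ctrl did not pass (adjusted p = 0.0223), with overlapping ranges. It passed with DESeq2 (-1.499, adjusted p = 0.00475), with the clock score as a covariate (-1.89, 0.00966) and without BG175 (-1.86, 0.00634). In ABpIF/F vs Ctrl it was 0.67 (95% interval -0.39 to 1.73).

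*H19*, a noncoding RNA that is among the most abundant transcripts of fetal liver, showed the greatest change of the 10 genes against Ctrl. It was 0.492 to 2.24 CPM in Ctrl livers (median 1.21), 55.3 to 202.9 CPM in ABpIF/+ livers (median 123.9) and 120.8, 112.5 and 205.0 CPM in the ABpIF/F mice BG183, BG90 and BG38. The lowest *Braf* mouse, BG30, was far above the highest Ctrl mouse, and the ranges of the *Braf* groups overlapped, with BG30, BG31 and BG175 below all ABpIF/F mice. *H19* was 104.4-fold higher in ABpIF/+ than in Ctrl (log2 fold change 6.71, SE 0.44, adjusted p = 5.52e-08) and 119.2-fold higher in ABpIF/F than in Ctrl (log2 fold change 6.90, SE 0.46, adjusted p = 1.85e-07). Leaving out each mouse in turn kept the ABpIF/+ value between 6.53 and 6.96. Between ABpIF/+ and ABpIF/F the log2 difference was -0.19 (95% interval -1.05 to 0.67), and it turned to 0.13 without BG38.

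*Meg3*, a noncoding RNA of the *Dlk1* cluster that can raise p53 activity, was 1.06 to 6.77 CPM in Ctrl (median 1.72) and 0.302 to 2.59 CPM in ABpIF/+ mice (median 1.29), overlapping ranges. The ABpIF/F mice BG183, BG90 and BG38 stood apart at 32.2, 17.3 and 19.6 CPM. *Meg3* rose in ABpIF/F vs Ctrl by a log2 fold change of 3.02 (SE 0.56, adjusted p = 0.00166), and it was lower in ABpIF/+ than in ABpIF/F by -4.11 (SE 0.59, adjusted p = 0.000274). Its value of -1.09 in ABpIF/+ vs Ctrl did not pass (95% interval -2.22 to 0.04, adjusted p = 0.166).

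*Rian*, the host of many small nucleolar RNAs next to *Meg3*, was 0.591 to 3.59 CPM in Ctrl (median 1.51), 0.189 to 0.927 CPM in ABpIF/+ (median 0.582) and 16.4, 11.5 and 11.4 CPM in the ABpIF/F mice BG183, BG90 and BG38. It was thus the gene here that was called in all 3 comparisons besides *Dlk1*. Its log2 fold change was -1.65 in ABpIF/+ vs Ctrl (SE 0.38, adjusted p = 0.00241), although the lowest Ctrl mouse lay within the ABpIF/+ range, 2.87 in ABpIF/F vs Ctrl (SE 0.38, adjusted p = 2.19e-05) and -4.51 in ABpIF/+ vs ABpIF/F (SE 0.41, adjusted p = 9.01e-07). *Mirg*, a further noncoding RNA of this cluster, had 3 reads or fewer in each Ctrl mouse and was 10.2 times as high in ABpIF/F as in Ctrl on summed counts (exact 95% interval 5.45 to 20.6). In ABpIF/+ it was 3.35 times as high as in Ctrl (1.72 to 7.02) and not called. There its direction was opposite to that of *Rian* and *Meg3*. The paternally expressed *Dio3* and *Rtl1* of the same cluster were at or below 0.501 CPM in every group mean and were not called, and these 3 neighbours were picked for their position after their values were known.

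**Figure D2:**
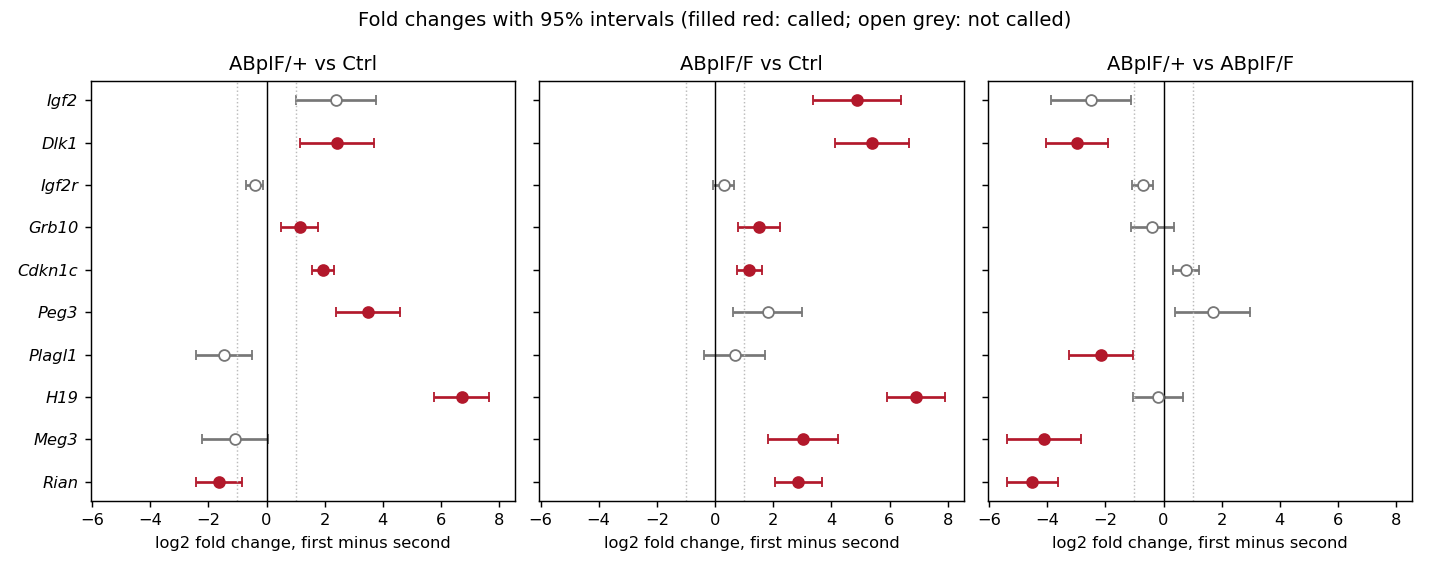
Log2 fold change (horizontal axis, first group minus second, with 95% intervals) of the 10 genes in the 3 comparisons, where filled red points were called, open grey points were not, and dotted lines mark a 2-fold change. *H19* is at 6.71 and 6.90 against Ctrl and at -0.19 between the *Braf* groups, where *Rian* (-4.51), *Meg3* (-4.11), *Dlk1* (-2.97) and *Plagl1* (-2.14) are called.

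Levels of different genes can be set side by side only per length, here as CPM per kilobase of GENCODE exons. In Ctrl livers *Igf2r* led the 10 genes at 4.29 ± 0.953 CPM per kb (SD, n = 6), followed by *Cdkn1c* at 1.71 ± 0.510, and *H19*, *Grb10* and *Peg3* at 0.493, 0.493 and 0.467 did not differ beyond their spread. In ABpIF/+ *H19* led at 52.0 ± 21.7 CPM per kb (SD, n = 6), ahead of *Cdkn1c* at 6.53 ± 0.874 and *Peg3* at 5.29 ± 1.33, which overlapped. In ABpIF/F *H19* led again at 59.4 ± 20.8 (SD, n = 3), above *Igf2r* at 5.32 ± 0.326 and *Igf2* at 4.43 ± 5.19. *Dlk1* stayed near the bottom in each group, at 0.00784, 0.0472 and 0.376 CPM per kb in Ctrl, ABpIF/+ and ABpIF/F.

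Because only the Ctrl mouse BG3 shares the strain label of the *Braf* mice, the fit was repeated without the other 5 Ctrl mice, which leaves a lone Ctrl mouse that is assumed to vary like the other groups. *H19* was still called at log2 fold changes of 8.01 (adjusted p = 0.00211) and 8.15 (adjusted p = 0.0028) in ABpIF/+ and ABpIF/F vs Ctrl. In ABpIF/+ vs Ctrl *Rian* (-2.003, adjusted p = 0.00958) and *Cdkn1c* (1.47, adjusted p = 0.00476) were also called, and in ABpIF/F vs Ctrl *Dlk1* was, where BG3 had 0 reads. In ABpIF/+ vs Ctrl *Peg3* was 5.25 (adjusted p = 0.0538), *Grb10* 1.48 (0.235) and *Dlk1*, at 0 in BG3, had an adjusted p of 0.0938, none of them called, and *Plagl1* in ABpIF/+ vs ABpIF/F was -2.10 (0.0198) and lost its call. *Igf2* in ABpIF/F vs Ctrl was 5.73 (adjusted p = 0.166), *Meg3* 2.37 (0.154), *Rian* 2.48 (0.0114), *Cdkn1c* 0.68 (0.224) and *Grb10* 1.80 (0.172), none of them called. The sign of each called value was kept. BG3 had the lowest *H19* and *Peg3* values of the Ctrl mice and the second lowest *Igf2*, so each of these changes was greater against BG3 than against all Ctrl mice.

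Neighbouring genes were then compared mouse by mouse within a genotype, in 12 tests of 6 pairs. The highest value was that of *H19* and *Igf2* in Ctrl (Pearson r = 0.933, exact permutation p = 0.0111, adjusted p = 0.0556, Spearman rho = 0.771, exact permutation p = 0.103, adjusted p = 0.308, n = 6 mice). In ABpIF/+ mice r was 0.916 (exact permutation p = 0.0139, adjusted p = 0.0556) and rho 0.829 (exact permutation p = 0.0583, adjusted p = 0.308). Without the 2 mice farthest from the median of *H19*, r was 0.634 in Ctrl and 0.721 in ABpIF/+. *Meg3* and *Rian* had r = 0.914 in Ctrl (exact permutation p = 0.00556, adjusted p = 0.0556) with rho = 0.943 (exact permutation p = 0.0167, adjusted p = 0.2) and r = 0.832 without the farthest 2 mice. In ABpIF/+ their r was 0.813 (exact permutation p = 0.0569, adjusted p = 0.156, rho = 0.6), and 0.269 without the farthest 2, so it rested on those mice. Within the 5 Ctrl mice of the shorter strain label r was 0.901 for *H19* and *Igf2* and 0.910 for *Meg3* and *Rian*. No pair passed an adjusted p of 0.05.

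*Cdkn1c*, at the far end of the chromosome 7 cluster, ran against *H19* (r = -0.799, exact permutation p = 0.0778) and *Igf2* (r = -0.817, exact permutation p = 0.0681) in Ctrl, but without BG3 and malpa387 r was 0.954 and 0.531, so these relations rested on that pair of mice. In ABpIF/+ the values were -0.430 and -0.685 and not significant (exact permutation p = 0.381 and 0.119). *Dlk1*, with few reads, had r between -0.302 and 0.270 with *Meg3* and *Rian* in both genotypes, and the lowest exact permutation p was 0.551. Both values of a mouse share a count column, its depth and its composition, which these correlations do not separate. How the libraries were batched is not known here.

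**Figure D3:**
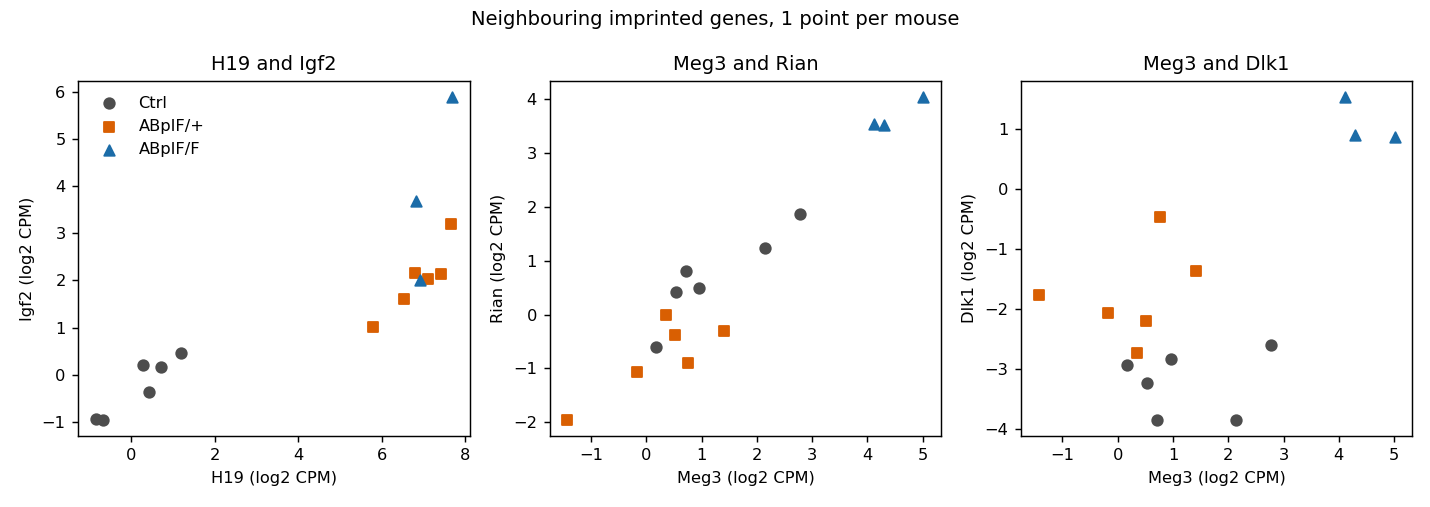
Log2 CPM of *Igf2* against *H19*, *Rian* against *Meg3* and *Dlk1* against *Meg3*, with 1 point per mouse (circles Ctrl, squares ABpIF/+, triangles ABpIF/F). For *Igf2* and *H19* r is 0.933 within Ctrl and 0.916 within ABpIF/+, neither past an adjusted p of 0.05, and the 3 ABpIF/F mice sit apart at high *Meg3* and *Rian*.

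Markers of other cell types moved with some of these genes. Of 12 stellate cell and fibroblast markers, 10 were called lower in ABpIF/+ than in Ctrl and 10 lower than in ABpIF/F (83.3% in each, against 5.35% and 5.49% of all genes down), none was at 0 in any group, and their summed level was 162.6 to 217.3 CPM in Ctrl, 31.9 to 75.6 in ABpIF/+ and 188.3 to 315.2 in ABpIF/F mice. *Meg3*, *Rian* and *Plagl1*, which were lowest in ABpIF/+, followed the same order of groups, and the part of these cells in that result was not tested. In ABpIF/F vs Ctrl, where *Meg3* and *Rian* were 8.12-fold and 7.29-fold higher, 1 of the 12 markers was called up and 1 down, and the ranges of the sum overlapped. Summed endothelial markers were 253.3 to 367.7, 144.3 to 297.1 and 306.7 to 422.8 CPM in Ctrl, ABpIF/+ and ABpIF/F, with 2 of 9 called lower in ABpIF/+ than in Ctrl. Cholangiocyte markers summed to 58.8 to 101.5, 122.4 to 268.1 and 347.7 to 1261 CPM, but in ABpIF/+ vs Ctrl 3 of the 9 were called up and 2 down, with a median log2 fold change of -0.31. Neutrophil markers summed to 2.40 to 4.29, 2.62 to 7.88 and 4.67 to 85.6 CPM. Within ABpIF/F neutrophil markers were 4.67 CPM in BG183, 31.6 in BG90 and 85.6 in BG38, the same order of mice as for *Igf2*, *Grb10* and *Peg3*. That order was not particular to neutrophils. Cholangiocyte markers (347.7, 895.2 and 1261 CPM) and macrophage markers (269, 497.9 and 607.1 CPM) had it too. So did the sums of the proliferation genes and of the fetal liver genes described below. An order of 3 mice was not tested. *H19* was high in ABpIF/+ mice at low stellate marker levels and in ABpIF/F mice at high ones. In bulk tissue fewer cells of a type and less RNA per cell cannot be told apart. By picrosirius red staining the study reported more periportal collagen in ABpIF/+ livers and less of it in ABpIF/F. The staining shows deposited collagen, which RNA levels do not measure.

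**Figure D4:**
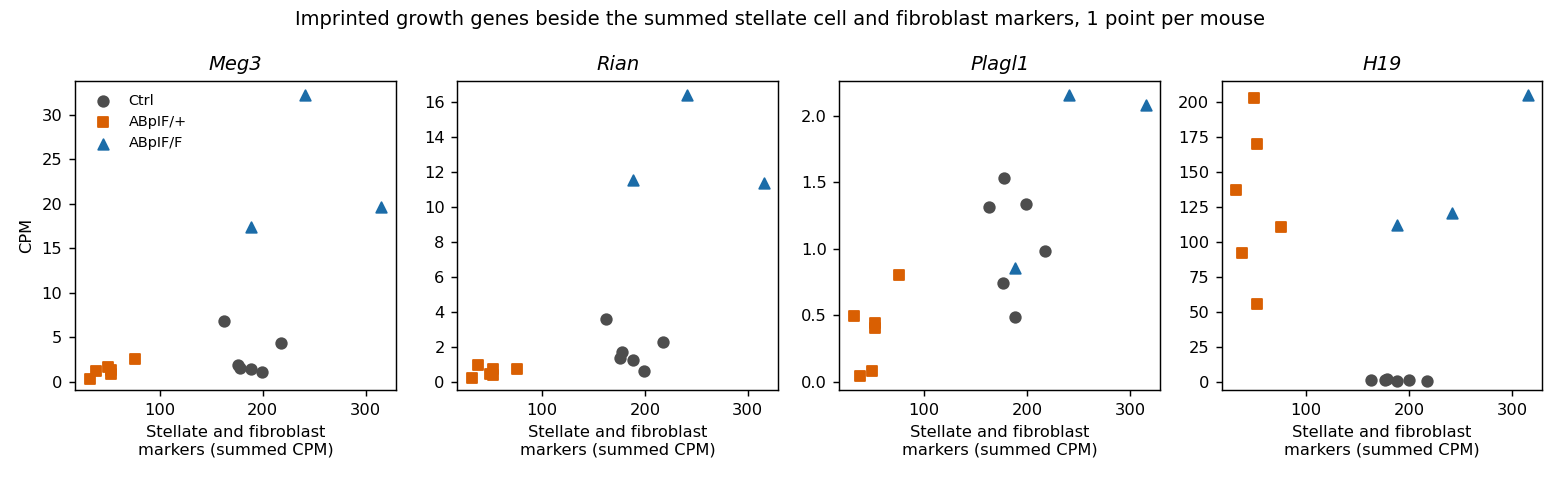
CPM of *Meg3*, *Rian*, *Plagl1* and *H19* (vertical axis) against the summed CPM of 12 stellate cell and fibroblast markers (horizontal axis) in each mouse. The 6 ABpIF/+ mice (squares) have marker sums of 31.9 to 75.6 CPM and low *Meg3* and *Rian* but *H19* of 55.3 to 202.9 CPM.

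Macrophage markers summed to 318 to 443.2 CPM in Ctrl, 132.8 to 231.8 in ABpIF/+ and 269 to 607.1 in ABpIF/F mice, and lymphocyte markers to 4.56 to 7.22, 1.12 to 3.29 and 5.61 to 15.3 CPM. Of 8 proliferation genes 6 were called lower in ABpIF/+ than in Ctrl and 6 lower than in ABpIF/F (75% in each, against 5.35% and 5.49% of all genes down). Their sums were 10.5 to 22.1, 3.92 to 5.88 and 11.9 to 26.1 CPM. The cell cycle inhibitor *Cdkn1c* was highest where the proliferation sum was lowest, in ABpIF/+. In ABpIF/F vs Ctrl, however, *Cdkn1c* was called up (1.18), while 0 of the 8 proliferation genes were called and the sums overlapped. A link between *Cdkn1c* and these genes was not tested.

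Other imprinted genes moved in both directions. Among 53 of them, 2 were upregulated and 7 downregulated in ABpIF/+ vs Ctrl (17.0% called, against 10.0% of all genes), 5 and 3 in ABpIF/F vs Ctrl (15.1% against 6.93%), and 1 and 7 in ABpIF/+ vs ABpIF/F (15.1% against 7.24%). Their median log2 fold change was -0.24, 0.18 and -0.73 over the 49 with a read, against 0, 0.09 and -0.05 over all 20380 genes with a read, and -0.25, 0.15 and -0.68 with genes at 0 in a group set to their bound. *Phlda2*, a maternally expressed brake on placental growth next to *Cdkn1c*, rose in ABpIF/+ by a log2 fold change of 3.45 (0.0520 ± 0.0636 to 0.620 ± 0.257 CPM, SD, n = 6 each) and in ABpIF/F by 4.08. *Tfpi2*, a protease inhibitor, fell by 2.73 on the log2 scale in ABpIF/+ vs Ctrl, *Ddc*, which makes dopamine and serotonin, by 2.24 and *Ndn*, a neuronal growth suppressor, by 2.15. The organic cation transporter *Slc22a3*, in the *Igf2r* cluster, fell by 2.55 in ABpIF/F vs Ctrl. *Rasgrf1*, a guanine nucleotide exchange factor for Ras, had no read in Ctrl and was at least 9.22-fold higher in ABpIF/F, where 3 reads per library set the floor. Its mean there was 0.987 ± 1.11 CPM (SD, n = 3).

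In ABpIF/+ vs ABpIF/F *Rasgrf1* was 0.0563 times as high on summed counts (exact 95% interval 0.0262 to 0.108) and *Asb4*, a ubiquitin ligase subunit, 0.109 times (0.0537 to 0.205). *Ascl2*, a transcription factor of the placenta, had no read in ABpIF/+ and was at least 1.14-fold lower there, and *Tspan32* was at -2.25 (adjusted p = 0.00748). Several of these genes are imprinted only in placenta or brain.

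IGF and insulin signalling genes gave the setting of *Igf2*, *Igf2r* and *Grb10*. Of 22 genes 1 was upregulated and 5 downregulated in ABpIF/+ vs Ctrl, 2 and 3 in ABpIF/F vs Ctrl, and 1 and 2 in ABpIF/+ vs ABpIF/F, which is 27.3%, 22.7% and 13.6% called against 10.0%, 6.93% and 7.24% of all genes, with medians of -0.24, -0.11 and 0.08. The binding protein *Igfbp1*, which holds IGFs in the blood and is induced when insulin is low, rose from 54.5 ± 35.5 to 2376 ± 786.6 CPM in ABpIF/+ (SD, n = 6 each), which is 5.45 on the log2 scale (adjusted p = 2.69e-06), and by 3.85 in ABpIF/F. The growth hormone receptor *Ghr*, the acid-labile subunit *Igfals* and the hormone *Igf1*, all products of the adult hepatocyte, fell by 1.503, 2.64 and 1.11 in ABpIF/+ vs Ctrl and by 1.89, 1.71 and 1.59 in ABpIF/F vs Ctrl. The receptor *Igf1r* rose in ABpIF/F vs Ctrl by 1.56 (2.67 ± 0.510 to 7.85 ± 4.77 CPM) and was lower in ABpIF/+ than in ABpIF/F by -1.66. *Igfbp4* was higher in ABpIF/+ than in ABpIF/F by 1.17. *Stc2*, an inhibitor of IGF-binding protein cleavage, had 3 reads or fewer in each ABpIF/+ mouse and was 0.0294 times as high there as in Ctrl (exact 95% interval 0.000724 to 0.175).

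Of 14 genes in a list of fetal liver genes and a regulator, 5 were upregulated in ABpIF/+ vs Ctrl and 8 in ABpIF/F vs Ctrl (35.7% and 57.1%, against 4.69% and 4.55% of all genes up), and none was called down in either by edgeR or DESeq2, with 0 and 1 down at an unadjusted p under 0.05. Compared with each other, 2 were higher and 3 lower in ABpIF/+ than in ABpIF/F (35.7% called against 7.24% of all genes). This list too was chosen with earlier results of these data known. The regulator, *Zhx2*, singled out after its values were seen, is itself an adult repressor of *Afp*, *H19* and *Gpc3*, and it averaged 17.4 CPM in Ctrl, 16.8 in ABpIF/+ and 16.9 in ABpIF/F mice and was not called. The medians were 1.39, 3.08 and 0.25 over all 14, and 0.01, 3.22 and -1.33 with genes at 0 in a group set to their bound and those at the floor left out. The proteoglycan *Gpc3*, a liver cancer marker that binds growth factors, rose from 0.814 ± 0.441 to 372.4 ± 77.6 CPM in ABpIF/+ (SD, n = 6 each, log2 fold change 8.80, adjusted p = 5.07e-08) and to 130.5 ± 105.1 CPM in ABpIF/F (SD, n = 3, log2 fold change 7.29). *Bex1* rose by 10.15 and 7.03, and was higher in ABpIF/+ than in ABpIF/F by 3.11. The alpha-fetoprotein gene *Afp* rose by 2.81 and 4.14, *Scd2* and *Bex4* by 4.10 and 4.17 in ABpIF/+. *Ly6d* rose by 5.44 in ABpIF/F vs Ctrl, and *Ly6d*, *Cd24a* and *Epcam* were lower in ABpIF/+ than in ABpIF/F by -5.67, -3.16 and -1.99. *Epcam* is also a cholangiocyte marker.

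Genes that set and keep imprints or act on DNA methylation, among them DNA methyltransferases, CTCF and KRAB zinc finger proteins, were tested as a list of 16. It also holds *Tet1*, *Tet2* and *Tet3*, which act to remove DNA methylation. The shares of all genes called (10.0%, 6.93% and 7.24%) were the background. Of the 16 genes edgeR called 0 in ABpIF/+ vs Ctrl, where 8 had an unadjusted p under 0.05 and DESeq2 called 2. It also called 0 in ABpIF/+ vs ABpIF/F, where 8 had an unadjusted p under 0.05 and DESeq2 called 0. In ABpIF/F vs Ctrl 1 was called, *Zfp57*, which protects imprints after fertilization, with a log2 fold change of 2.17 (adjusted p = 0.000858, 0.777 ± 0.190 to 3.50 ± 2.80 CPM). Some genes of this list were past the p threshold and short of 2-fold. In ABpIF/+ vs Ctrl these were *Trim28* (0.60, adjusted p = 0.000168) and *Setdb1* (-0.41, 0.00162). In ABpIF/+ vs ABpIF/F they were *Dnmt1* (-0.82, 0.000395) and *Trim28* (0.56, 0.00488). In ABpIF/F vs Ctrl it was *Dnmt1* (0.59, 0.00669). DNA methylation and the parental origin of the transcripts were not measured.

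**Figure D5:**
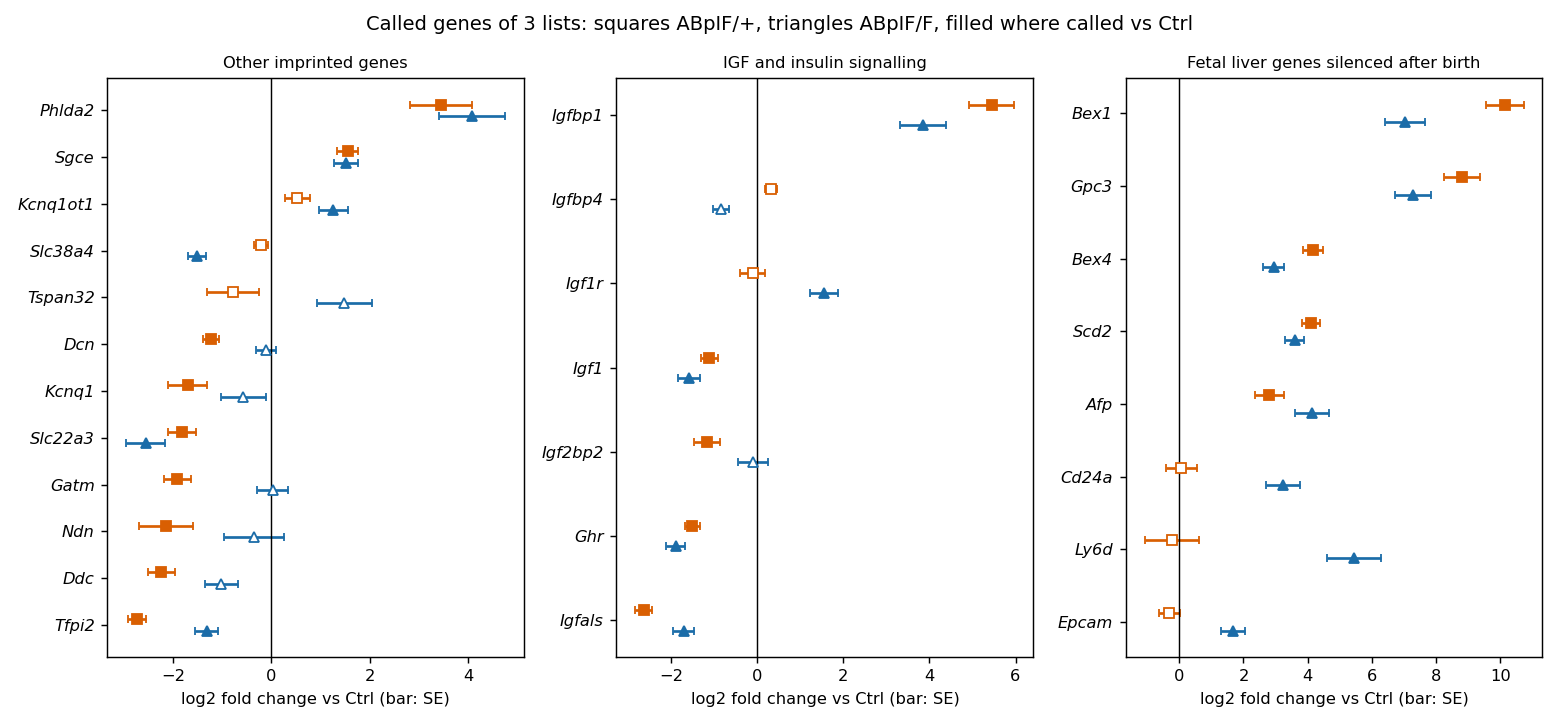
Log2 fold change vs Ctrl (horizontal axis, bars are standard errors) of the called genes of 3 lists with more than 3 reads in some mouse of each group, for ABpIF/+ (squares) and ABpIF/F (triangles), filled where called. *Gpc3* is at 8.80 and 7.29 and *Igfbp1* at 5.45 and 3.85, while *Ghr* and *Igfals* lie below 0 in both.

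The genes whose log2 CPM were most like each called gene over the 15 mice, among 12210 or 12211 others with at least 1 CPM, were as follows. For *H19* they were *Akr1c18*, *Elapor1* and *Pak1* (r = 0.981 to 0.987), and for *Igf2* *Tmem229a*, *Nipal2* and *Cdk19* (0.952 to 0.957). *Dlk1* was most like *Pld1*, *Il1rn* and *Ace* (0.932 to 0.937), and *Peg3* most like *Tbc1d24*, *Ankrd27* and *Ptpn21* (0.958 to 0.961). *Meg3* and *Rian* were each other's nearest gene of all (0.964), followed for both by *Arhgap4* and *Mgat1* (0.920 to 0.944). *Plagl1* was nearest to *Kctd12b*, *Mmrn2* and *Ikzf1* (0.910 to 0.953), *Cdkn1c* to *Hsd17b13*, *Ap5s1* and *Coq8b* (0.973 to 0.983) and *Grb10* to *Tgfa*, *Osbpl3* and *Ptprm* (0.913 to 0.925). These likenesses follow the differences between groups.

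With the group means removed, *Meg3* and *Rian* were again nearest to each other (r = 0.870). The other nearest genes were *Snx32* and 1810034E14Rik for *Meg3* and *Xlr3a* and *Kazald1* for *Rian* (0.833 to 0.861). *Plagl1* kept *Kctd12b* and *Mmrn2* (0.891 and 0.871) after *Add3* (0.922). For *H19* the nearest were *Heatr5b*, *Slfn9* and *Tmx4* (0.838 to 0.929), for *Igf2* *Cpe*, *Sf3b3* and *Inppl1* (0.894 to 0.929) and for *Dlk1* *Bms1*, *Diaph1* and *Gtf3c1* (0.807 to 0.847). *Peg3* was nearest to *Cd2ap*, *Cep192* and *Agps* (0.935 to 0.957), *Cdkn1c* to *Timm50*, *Ppdpf* and *Pmf1* (0.940 to 0.963) and *Grb10* to *Bmi1*, *Ajuba* and *Cln8* (0.869 to 0.911). The points share a library, its depth and its composition.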

How the data were processed

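The authors extracted total RNA from liver with Trizol, made Illumina Stranded mRNA libraries and sequenced paired ends. Per the labels, HISAT2 2.21 (mm10) and featureCounts 2.0.8 were used. The gene annotation and the strand setting are not given in the sources used here. The deposited values are raw counts of 27179 genes, with a single column for each of 15 mice. GEO lists 23 samples, of which 8 mice hold a pair, so that libraries of the same mouse could not be told apart. A further deposited table repeats the counts. Its 5 count columns headed by a bare number were not used, nor were its columns of the authors' own fold changes and p-values.

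The software was edgeR 4.0.16, DESeq2 1.42.0 and limma 3.58.1 under R 4.3.3. A single robust quasi-likelihood model of the 3 groups, in the form of edgeR 3.36, was fitted to every gene with TMM factors. Benjamini-Hochberg adjustment ran over 27179 genes in each comparison, and the call thresholds were 0.01 for the adjusted p and 1 for the size of the log2 fold change. The SE is the size of the log2 fold change divided by the root of F. Log2 CPM used a prior count of 2. Groups with 3 reads or fewer in each mouse were compared on summed counts with exact 95% intervals, and groups at 0 against a floor of 3 reads per library. Intervals and floors cover counting error only. Positions came from GENCODE M21, sequences from RefSeq, both on GRCm38. The model was tested on simulated data.

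The genes and lists were chosen with earlier results of these data known. Named are the 10 genes, of each other list up to 4 called genes per comparison with the largest log2 fold change in size, and the 3 genes most like each called gene. Alternatives were RLE size factors, DESeq2, filterByExpr (genes of low counts removed), the edgeR 4 form, no robust estimation, a threshold of 0.05 for the adjusted p or of 2 for the log2 fold change, fits of only the groups compared, the other table, leaving out each mouse, the same strain label only, and a circadian clock score as a covariate. For the correlations they were a prior count of 0.5 and leaving out each mouse.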

Additional observations from a re-analysis of the deposited data

Results flagged for a closer look

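Each of the 10 genes was searched for a mouse far from the rest of its group in Ctrl and in ABpIF/+, 20 groups of 6 mice in all, by Dixon's critical value at the 95% level. A single group held such a mouse: BG40 of ABpIF/+ had 9.09 CPM of *Igf2*, the next mouse had 4.38, and the gap made up 0.659 of the whole range. Chance alone gives about 1 such group in 20. BG40 also had the highest *H19* (202.9 CPM), *Dlk1* (0.658 CPM) and *Peg3* (89.8 CPM) and the lowest *Cdkn1c* (10.2 CPM) of the ABpIF/+ mice. Groups of 3 mice were not tested.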

How the results depend on the processing

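The *H19* calls against Ctrl held under all alternatives run. Of 300 log2 fold changes of the 10 genes under settings other than leaving out a mouse or using the other table, whose counts are identical, 261 kept their direction and their side of the thresholds, 22 lost a call, 16 gained one and 1 reversed: *Igf2r* in ABpIF/+ vs Ctrl was 0.025 with the same strain label only. Of 450 with a mouse left out, 419 kept both and 2 reversed, neither of them called, for *H19* (-0.371 to 0.134) and *Grb10* (-0.686 to 0.432) in ABpIF/+ vs ABpIF/F, both without BG38. The cause was not tested. The number of the 10 genes called in ABpIF/+ vs Ctrl was 3 at a log2 threshold of 2 and 3 with the same strain label only, and in ABpIF/F vs Ctrl 2 with the same strain label only, where a lone Ctrl mouse was left. With the clock score as a covariate the counts were 5, 6 and 3.

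For the other lists, DESeq2 called 2 and 3 imprint maintenance genes in ABpIF/+ and ABpIF/F vs Ctrl. At an adjusted p under 0.05, 14 and 13 other imprinted genes and 3 and 3 imprint maintenance genes were called against Ctrl, and 5 IGF genes in ABpIF/+ vs ABpIF/F. At a log2 threshold of 2, other imprinted genes gave 4, 4 and 4 calls, IGF genes 3, 1 and 1, and fetal genes 3 in ABpIF/+ vs ABpIF/F. Fits of only the groups compared gave 1 imprint maintenance gene in ABpIF/+ vs Ctrl and 3 fetal genes in ABpIF/+ vs ABpIF/F. With the same strain label only, against Ctrl other imprinted genes gave 4 and 4 calls, IGF genes 3 and 3, fetal genes 1 and imprint maintenance genes 0 in ABpIF/F, and fetal genes 3 in ABpIF/+ vs ABpIF/F. With the clock score, fetal genes gave 5 and imprint maintenance genes 0 in ABpIF/F vs Ctrl, and other imprinted genes 1, IGF genes 1 and fetal genes 0 in ABpIF/+ vs ABpIF/F. Leaving out each mouse gave 0 to 1 and 1 to 2 imprint maintenance genes against Ctrl and 3 to 8 other imprinted genes in ABpIF/+ vs ABpIF/F, lowest without BG38. Correlations changed sign for *Dlk1* and *Meg3* in Ctrl (-0.579 to 0.519), *Dlk1* and *Rian* in Ctrl (-0.75 to 0.232) and in ABpIF/+ (-0.534 to 0.033), and *Cdkn1c* with *H19* (-0.656 to 0.23) and *Igf2* (-0.867 to 0.108) in ABpIF/+, the last pair without BG40.

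Read numbers were low for *Dlk1* in Ctrl (0 to 3 per mouse) and for *Plagl1* in ABpIF/+ (1 to 25). Of all genes, 1095, 856 and 855 were called in the 3 comparisons at a log2 threshold of 2 (2729, 1883 and 1969 at 1), 552 in ABpIF/+ vs ABpIF/F with the clock score, 1159 and 982 in ABpIF/+ and ABpIF/F vs Ctrl with the same strain label only, and, without BG38, 1212 in ABpIF/F vs Ctrl and 1155 in ABpIF/+ vs ABpIF/F. No paired analysis was possible because the replicate numbers only name mice in accession order and tie no mouse to a mouse of another group.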
